A study of Mus musculus with 38 samples.

Results

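The promoters of 6 genes for transcription factors that carry the rhythm of the circadian clock to other genes, *Dbp*, *Tef*, *Hlf*, *Nfil3*, *Bhlhe40* and *Bhlhe41*, were followed in the soleus muscle of mice before, during and after fasting-induced torpor. A promoter is here a CAGE cluster whose highest peak lay within 500 bp, on the same strand, of an annotated 5′ end of the gene (GENCODE M21, mm10). By this rule 7 of the 10,819 clusters belonged to the 6 genes, out of 9,077 genes with a cluster. No gene was absent, *Tef* had a pair of promoters, and the others had 1 each.

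Each of the 38 libraries was made by nAnT-iCAGE, in which the capped 5′ end of an RNA gives 1 sequenced tag, from the soleus of 1 male C57BL/6J mouse with no engineered allele. Experiment #1 (28 libraries) held 4 Pre mice fed freely on day 1, 8 Mid mice on day 2 after food was withdrawn at a low ambient temperature, and 4 Post mice on day 3 after food was returned. The article describes a wide range of metabolic rates among the Mid mice, so some were between bouts of torpor when sampled, and the Mid stands here for fasted mice free to enter torpor. It also held 4 HiT mice kept at a high ambient temperature on day 2, 4 Fed mice with food on day 2 at the low temperature, and 4 Dep mice fasted on day 2 and touched whenever their metabolism began to drop (torpor deprivation). Experiment #2 (10 libraries) was another batch of mice, with 2 Pre, 5 Mid and 3 Post. The sources differ on food: the submitters' design text gives the HiT mice food whereas the article describes them as fasted, and a sample tag calls the Fed mice starved. The article gives a single sampling time late in the dark phase, the same for the Pre, Mid, Post and Dep. A change in the height of a daily rhythm and a shift of its phase thus cannot be told apart. In a whole muscle, fewer cells of a type and less RNA per cell also cannot be told apart.

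DBP, TEF and HLF are the PAR bZIP factors, activators that bind D-box elements, and their mRNAs usually cycle as outputs of the clock. NFIL3, also called E4BP4, is a repressor that binds the same D-boxes, and its mRNA usually runs against that of *Dbp*. BHLHE40 and BHLHE41 (DEC1 and DEC2) are repressors that bind the E-boxes used by the CLOCK and ARNTL activators, are themselves driven through E-boxes, and also respond to signals such as feeding, low oxygen and hormones.

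The start regions of the promoters with a full E-box or cAMP response element, by letters alone, are shown because these are the elements through which clock and cAMP signals are known to act. Of the 7 promoters, 6 have an entry of 300 bases in the RefSeq table for GRCm38.p6 (250 bases before the annotated start to 50 after it), and *Bhlhe40* has none in it. The E-box CACGTG was found in 3 of the 6, against 7.15% of 32,817 promoters of that length, and begins 192 bases upstream of the highest CAGE peak of *Tef* promoter 1, 195 upstream of that of *Tef* promoter 2 and 47 upstream of that of *Bhlhe41*. The cAMP response element TGACGTCA (1.79% of all promoters) was found in *Hlf*, where it spans the highest peak and begins 5 bases upstream of it. Capitals mark the E-box in both *Tef* promoters and in *Bhlhe41*, and the cAMP response element in *Hlf*, in the sequences chr15:81811164-81811463 (plus strand), chr15:81802423-81802722 (plus), chr6:145865371-145865670 (minus) and chr11:90390868-90391167 (minus).
Tef promoter 1: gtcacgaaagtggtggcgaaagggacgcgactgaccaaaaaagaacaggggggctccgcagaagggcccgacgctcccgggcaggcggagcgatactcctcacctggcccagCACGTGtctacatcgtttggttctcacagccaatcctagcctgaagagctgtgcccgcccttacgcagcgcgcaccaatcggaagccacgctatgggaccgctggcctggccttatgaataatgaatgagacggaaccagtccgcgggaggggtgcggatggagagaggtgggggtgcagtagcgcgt
Tef promoter 2: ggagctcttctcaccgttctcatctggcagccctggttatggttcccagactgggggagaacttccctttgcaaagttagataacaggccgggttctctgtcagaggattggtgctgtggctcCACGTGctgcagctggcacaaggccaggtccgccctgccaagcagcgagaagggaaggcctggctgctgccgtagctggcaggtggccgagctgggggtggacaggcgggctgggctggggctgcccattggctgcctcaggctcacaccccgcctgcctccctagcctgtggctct
Bhlhe41: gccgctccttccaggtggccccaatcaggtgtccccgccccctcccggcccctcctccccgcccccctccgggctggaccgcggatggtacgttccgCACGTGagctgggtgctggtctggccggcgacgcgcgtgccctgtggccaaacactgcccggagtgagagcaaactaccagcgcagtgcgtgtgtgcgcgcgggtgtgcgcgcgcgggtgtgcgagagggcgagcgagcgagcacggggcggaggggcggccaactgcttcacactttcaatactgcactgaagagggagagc
Hlf: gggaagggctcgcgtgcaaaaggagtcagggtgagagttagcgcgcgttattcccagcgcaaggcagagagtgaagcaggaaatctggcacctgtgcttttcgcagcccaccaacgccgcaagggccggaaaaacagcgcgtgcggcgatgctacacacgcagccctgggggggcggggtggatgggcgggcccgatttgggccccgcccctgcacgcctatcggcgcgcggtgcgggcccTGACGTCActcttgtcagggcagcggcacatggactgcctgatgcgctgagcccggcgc

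Motifs were read on both strands. The shorter cAMP element TGACG, which lies inside TGACGTCA, was also found in *Nfil3*, beginning 54 bases upstream of the peak on the minus strand of the gene, and is held by 20.8% of all promoters. Neither the D-box (TTATGTAA or TTACGTAA, 1.05% of all promoters) nor the RRE, the element bound by REV-ERB and ROR (0.74%), was found in any of the 6 windows, and *Dbp* held none of the motifs searched. The windows of *Tef* promoters 1 and 2 end 5 and 19 bases before their CAGE peaks. All 6 were richer in G and C than the median promoter (52.7%), from 60.3% in *Dbp* to 81.7% in *Nfil3*.

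The clusters sat at the annotated starts. In mm10 the *Dbp* cluster spans chr7:45704900-45705741 (plus strand), with its highest peak 19 bases upstream of an annotated 5′ end. *Tef* promoter 1 (chr15:81811344-81811710, plus) starts the coding transcript Tef-201, and promoter 2 (chr15:81802557-81802838, plus) lies at the start of Tef-203, which is annotated as a retained intron. The *Hlf* cluster (chr11:90390763-90390975, minus) peaks 26 bases upstream of the annotated start, and those of *Nfil3* (chr13:52980849-52981189, minus), *Bhlhe40* (chr6:108660561-108660994, plus) and *Bhlhe41* (chr6:145865259-145865626, minus) peak 29, 32 and 32 bases downstream of it.

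The clusters of a library held between 18257657 and 39176649 tags in experiment #1 and between 9359994 and 20914855 in experiment #2, and each member promoter had between 41 and 2370 tags in every library. Levels are the deposited TPM (tags per 1000000 tags of a library), which need no scaling by length because an RNA gives 1 tag. Log2 fold changes and Benjamini-Hochberg FDRs are from edgeR's quasi-likelihood F test with TMM over all clusters, and a promoter was called at an FDR below 0.05. TMM factors ran from 0.679 to 1.21, the lowest in HiT replicate 4, so TPM values of that library are low for most promoters and the fitted changes are the ones to compare. Overlap of levels between groups is given in TPM, before TMM, unless stated otherwise. It was read for the members only, without the share over all clusters. All 8 markers of slow muscle fibers on a list of defining genes, among them *Myh7* and *Tnni1*, were found at 166 TPM or more in every library. The 8 markers of fast fibers were found too, from *Atp2a1* at 4614 to 11116 TPM to *Myh4* at 0.18 to 1617. The markers thus do not set the libraries apart as slow muscle alone.

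Averaged over all 38 libraries, *Tef* promoter 1 had the highest level of the 7 (49.0 TPM), followed by *Nfil3* (41.9), *Bhlhe40* (30.4), *Tef* promoter 2 (12.5), *Bhlhe41* (11.9), *Dbp* (9.94) and *Hlf* (5.44). This order was not kept in every group: *Nfil3* exceeded *Tef* promoter 1 in the HiT, the Dep and the Pre and Mid of experiment #2, and *Bhlhe40* exceeded it in the HiT and Post of experiment #1. All 7 differed among the 6 groups of experiment #1 (FDR between 7.19e-10 and 0.0321), as did 70.6% of the 10,776 clusters tested there.

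**Figure D1:**
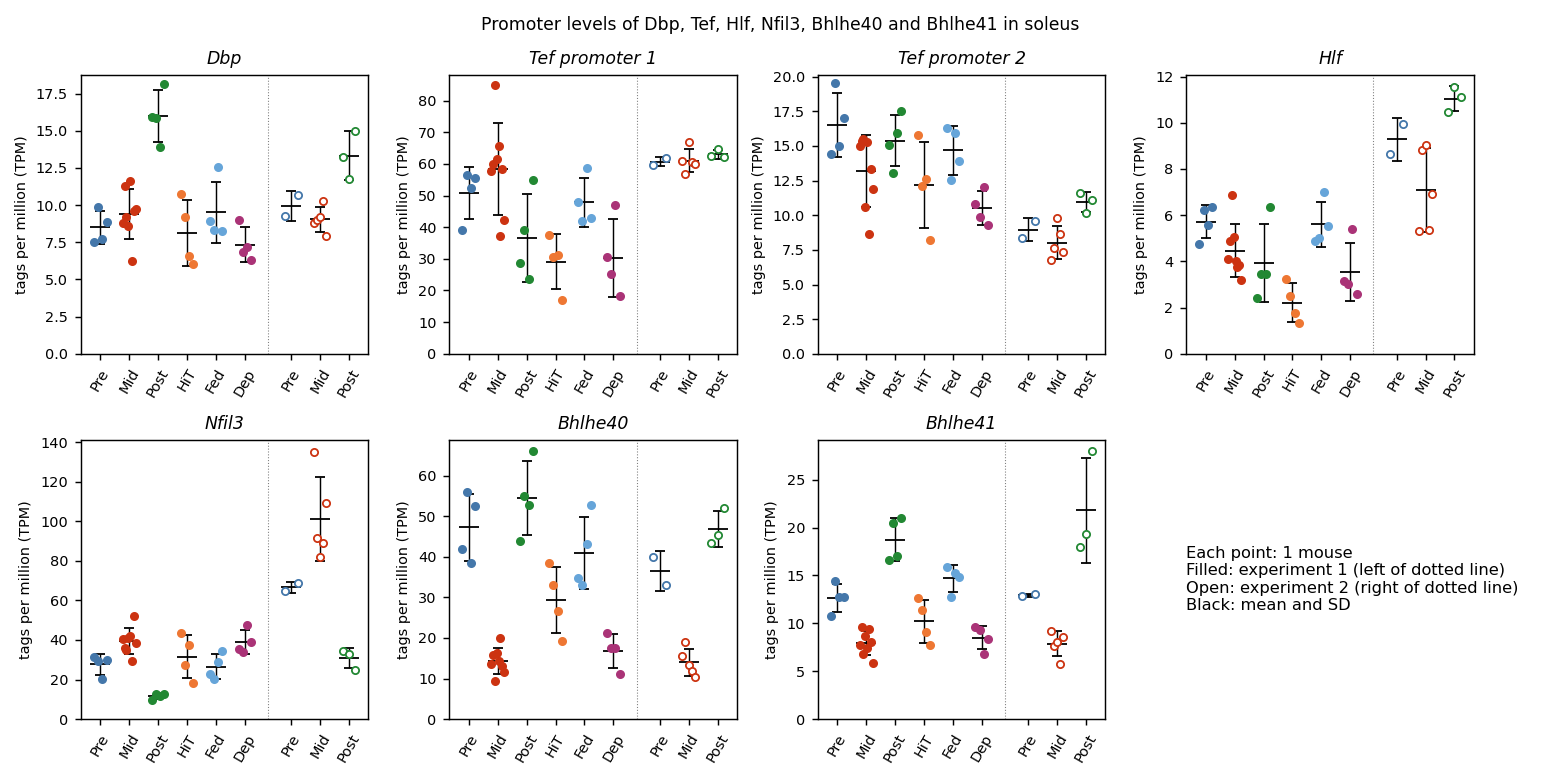
Level of each promoter in TPM, with 1 point per mouse, filled for experiment #1 and open for experiment #2, and the mean and SD of each group in black. Within each experiment, the Mid libraries are the lowest group for *Bhlhe40*, the Post libraries the highest for *Dbp* and *Bhlhe41* and the lowest for *Nfil3*.

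From the Pre to Mid, food was withdrawn and the mice were free to enter torpor. In experiment #1, 3 of the 7 promoters were called, 1 higher (*Nfil3*) and 2 lower (*Bhlhe40* and *Bhlhe41*), against 30.2% of all clusters. The PAR bZIP promoters were not called, although *Tef* promoter 2 had an unadjusted p of 0.0490 in edgeR's test (-0.24 ± 0.11). Whether repressors and activators changed differently was not tested. *Bhlhe40* was at 42.0, 56.0, 38.6 and 52.5 TPM in the Pre libraries, between 9.39 and 19.9 (median 13.96) in the 8 Mid libraries, and at 43.9, 55.1, 52.8 and 66.04 in the Post libraries. Every Mid library was thus below every Pre and Post library. It fell by 1.62 ± 0.15 (SE) on the log2 scale from the Pre to Mid, 3.07-fold (FDR 3.53e-08), and rose by 1.89 ± 0.15 from the Mid to Post (FDR 1.31e-09). In experiment #2, *Bhlhe40* was at 40.0 and 33.0 TPM in the Pre, between 10.4 and 18.9 (15.5, 18.9, 13.4, 11.9 and 10.4) in the Mid, and at 43.5, 45.4 and 52.0 in the Post. It was the only 1 of the 7 called from the Pre to Mid there, where 9.74% of all clusters were called (log2 fold change -1.33 ± 0.18, FDR 0.00191).

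*Bhlhe41*, its paralog, moved in the same direction by less. Its Pre libraries were at 10.7, 14.4, 12.7 and 12.8 TPM, the Mid between 5.84 and 9.60 (median 7.92), and the Post at 16.6, 20.5, 16.99 and 21.0. None of these 3 ranges overlapped. It fell by 0.58 ± 0.13 on the log2 scale between the Pre and Mid (FDR 0.00124) and rose by 1.21 ± 0.13 from the Mid to Post (FDR 6.64e-08). In experiment #2 the levels were 12.8 and 13.1 TPM in the Pre, 9.16, 7.67, 8.06, 5.74 and 8.61 in the Mid, and 18.005, 19.3 and 28.05 in the Post. The fall from the Pre to Mid did not pass there (-0.66 ± 0.20, FDR 0.0606), although DESeq2 called it (FDR 0.0364), and the rise from the Mid to Post did (1.38 ± 0.17, FDR 0.000394). In each library *Bhlhe40* exceeded *Bhlhe41*, on average 3.74 ± 0.48 times (SD, n = 4) in the Pre and 1.79 ± 0.24 times (n = 8) in the Mid libraries of experiment #1, with no overlap between these groups.

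The *Nfil3* promoter moved the other way. It was at 31.4, 29.3, 20.04 and 29.9 TPM in the Pre libraries, between 29.4 and 52.3 (median 39.5) in the Mid, and at 9.66, 12.6, 11.7 and 12.6 in the Post. The Mid and Pre ranges overlapped slightly, and every Post library was below all others of the experiment. It rose by 0.59 ± 0.13 from the Pre to Mid (FDR 0.00124) and fell by 1.77 ± 0.14 on the log2 scale, 3.42-fold, from the Mid to Post (FDR 1.57e-09). The rise did not pass with library totals in place of TMM (0.51, FDR 0.0669). In experiment #2 all levels were higher, at 64.6 and 68.7 TPM in the Pre, 135, 91.4, 81.9, 88.8 and 109 in the Mid, and 34.6, 32.9 and 25.02 in the Post. These groups did not overlap, the change from the Pre to Mid did not pass (0.67 ± 0.22, FDR 0.0849; FDR 0.0199 by DESeq2), and the fall from the Mid to Post was 1.80 ± 0.20 on the log2 scale (FDR 0.000242).

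Among the PAR bZIP activators, *Dbp* was called only in comparisons with the Post, after food had returned. Its levels in experiment #1 were 7.53, 9.89, 7.72 and 8.83 TPM in the Pre, between 6.25 and 11.6 (median 9.40) in the Mid, and 15.9, 15.9, 13.9 and 18.2 in the Post. The Post libraries lay above all others and the Pre and Mid ranges overlapped. Its log2 fold change between the Pre and Mid was 0.23 ± 0.12 (FDR 0.164), and it rose by 0.76 ± 0.12 from the Mid to Post (FDR 1.76e-05). In experiment #2, *Dbp* was at 9.25 and 10.6 TPM in the Pre, 8.78, 8.997, 9.20, 10.3 and 7.91 in the Mid, and 13.2, 11.7 and 14.99 in the Post, again with the Post libraries above the rest. There it rose by 0.49 ± 0.11 from the Mid to Post (FDR 0.0123). That call was lost without Post replicate 7 (FDR 0.0600) and with the sequencing lane as a term (FDR 0.107), since all 3 Post libraries and 1 of the 5 Mid libraries were on a lane of their own.

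*Tef* promoter 1 was at 39.0, 56.5, 52.3 and 55.5 TPM in the Pre, between 37.1 and 84.8 (median 59.2) in the Mid, and at 28.7, 39.2, 23.6 and 54.9 in the Post libraries of experiment #1. These ranges overlapped. It was not called from the Pre to Mid (0.28 ± 0.17, FDR 0.242) and fell by 0.71 ± 0.18 on the log2 scale from the Mid to Post (FDR 0.00295; FDR 0.0554 with library totals). In experiment #2 it stayed between 56.8 and 66.8 TPM in all 10 libraries, with a log2 fold change of -0.03 ± 0.07 from the Mid to Post (FDR 0.801), and the fit of all 38 libraries gave a change of -0.40 (FDR 0.0128).

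*Hlf*, which had the lowest mean of the 7 in each group of experiment #1, was at 4.76, 6.20, 5.57 and 6.35 TPM in the Pre, between 3.20 and 6.87 (median 4.05) in the Mid, and at 2.42, 3.47, 3.44 and 6.37 in the Post libraries of experiment #1. Neither *Hlf* nor *Tef* promoter 2 was called between the Pre and Mid or between the Mid and Post in either experiment. In experiment #2, *Hlf* was at 8.63 and 9.93 TPM in the Pre, 5.31, 8.82, 9.06, 5.34 and 6.90 in the Mid, and 10.5, 11.5 and 11.1 in the Post, where its change from the Mid to Post (0.55 ± 0.17) had an FDR of 0.0507.

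After food returned, 5 of the 7 promoters were called against the Mid in experiment #1, 3 higher and 2 lower, against 35.0% of all clusters, and 4 of 7 in experiment #2, 3 higher and 1 lower, against 16.4%. The 4 called in experiment #2 (*Nfil3*, *Bhlhe40*, *Bhlhe41* and *Dbp*) were also called in experiment #1, in the same direction.

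**Figure D2:**
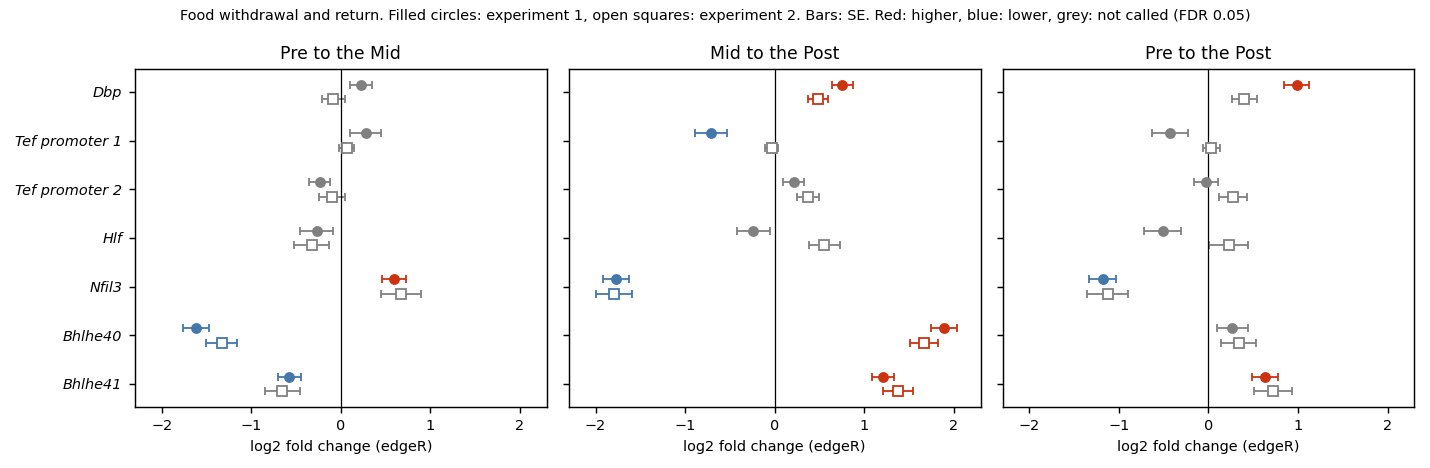
Log2 fold change with its SE for each promoter in 3 panels (Mid against Pre, Post against Mid, Post against Pre), with filled circles for experiment #1 and open squares for experiment #2, in red or blue where called and grey otherwise. *Bhlhe40* and *Bhlhe41* lie below 0 in the panel of the Mid against the Pre and above 0 in that of the Post against the Mid in both experiments, and *Nfil3* the other way round.

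The comparison of the Pre and Post, both with food and without torpor, asks whether a promoter returned to its level. Few clusters of the muscle differed, 1.85% in experiment #1, and 3 of the 7 promoters were among them. *Nfil3* was 2.27-fold lower in the Post (log2 fold change -1.18 ± 0.15, FDR 5.80e-05), *Dbp* was 1.98-fold higher (0.99 ± 0.14, FDR 0.000262) and *Bhlhe41* was 1.55-fold higher (0.63 ± 0.15, FDR 0.0254). For each of these genes the 4 Pre and 4 Post libraries did not overlap (exact permutation test on log2 TPM, two-sided, p = 0.0286, the smallest that 4 against 4 allows). The genes were picked by their calls on these same libraries, so neither the separation nor this p adds support. The share of all clusters without overlap was not computed. *Bhlhe40* was not called (0.27 ± 0.17, FDR 0.562). The call of *Bhlhe41* was lost with library totals (FDR 0.252) and without Pre replicate 1, 2 or 4 or Post replicate 1 or 2 (FDR between 0.0550 and 0.0935). In experiment #2 none of the 7 was called from the Pre to Post, where 0.111% of clusters were called, and 3 of the 7 had an unadjusted p below 0.05, against 11.1% of clusters. These were the same 3 genes, with log2 fold changes of -1.13 ± 0.23 for *Nfil3* (FDR 0.119; FDR 0.00107 by DESeq2), 0.72 ± 0.22 for *Bhlhe41* (FDR 0.245) and 0.40 ± 0.14 for *Dbp* (FDR 0.333). Both Pre libraries of experiment #2 were on lane 3 and all 3 Post libraries on lane 4, so group and lane cannot be told apart here except through the Mid. Both of these comparisons share their libraries with the others of the same experiment.

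Whether a change differed between the experiments was tested as an interaction. For the change from the Pre to Mid, 0 of 10,819 clusters were called by edgeR (605 had an unadjusted p below 0.05), and none of the 7 promoters had an unadjusted p below 0.05. For the change from the Mid to Post, 0 clusters were called (704 with an unadjusted p below 0.05). *Tef* promoter 1 (difference of the log2 fold changes 0.65 ± 0.22, unadjusted p 0.0082 in edgeR's test, FDR 0.731) and *Hlf* (0.76 ± 0.28, unadjusted p 0.0114 in edgeR's test, FDR 0.731) were the 2 of 7 with an unadjusted p below 0.05. DESeq2 also called none of the 7 in either interaction. Levels themselves stood apart between the experiments for some promoters: the lowest *Nfil3* level in the Mid of experiment #2 (81.9 TPM) was above the highest of experiment #1 (52.3), and *Tef* promoter 2 gave 6.75 to 11.6 TPM in experiment #2 against 8.22 to 19.5 in experiment #1, with overlap. Experiment is also mouse batch and sequencing run, and these cannot be told apart.

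The HiT, Fed and Dep groups of experiment #1 were set against the Mid and the Pre. Each differs from the Mid in ambient temperature, food or handling as well as in torpor, and these cannot be told apart. From the HiT to Mid, 4 of the 7 promoters were called, 2 higher and 2 lower, against 41.0% of all clusters. *Hlf* was at 3.23, 2.50, 1.78 and 1.34 TPM in the HiT libraries and was 1.93-fold higher in the Mid (log2 fold change 0.95 ± 0.19, FDR 0.000344), with only the lowest Mid library (3.20) below the highest HiT library. *Tef* promoter 1, at 37.6, 30.5, 31.2 and 17 TPM in the HiT, was 1.89-fold higher in the Mid (0.92 ± 0.18, FDR 0.000219), again with an overlap of a single pair of libraries in TPM. After TMM, neither of these promoters overlapped between the HiT and Mid. *Bhlhe40* (38.4, 33.2, 26.5 and 19.3 TPM in the HiT) was lower in the Mid by 1.104 ± 0.15 on the log2 scale (FDR 1.88e-06), and *Bhlhe41* (12.6, 11.4, 9.06 and 7.70) by 0.45 ± 0.13 (FDR 0.0070; FDR 0.0708 with library totals). *Nfil3*, at 43.4, 27.2, 37.4 and 18.4 TPM in the HiT, was not called (0.23 ± 0.13, FDR 0.150).

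From the Fed to Mid, 3 of 7 were called, 1 higher and 2 lower, against 35.2% of clusters, and these were the genes called from the Pre to Mid. *Bhlhe40* was at 34.8, 33.1, 43.2 and 52.7 TPM in the Fed and lower in every Mid library (log2 fold change -1.39 ± 0.15, FDR 2.17e-07). *Bhlhe41* (15.9, 12.7, 15.3 and 14.8 TPM in the Fed) was lower by 0.77 ± 0.13 on the log2 scale (FDR 4.89e-05), without overlap. *Nfil3* (22.6, 20.3, 28.8 and 34.5 TPM) was higher in the Mid by 0.69 ± 0.13 (FDR 0.000254). From the Pre to Fed, none of the 7 was called against 11.2% of clusters, and no unadjusted p was below 0.05 for any of the 7. Both comparisons with the Mid share its 8 libraries with each other and with the Pre to Mid.

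Dep mice, fasted but kept from torpor, differed from the Mid in a single member. From the Mid to Dep, 1 of the 7 was called against 2.03% of clusters: *Tef* promoter 1, at 30.6, 25.3, 47.1 and 18.2 TPM in the Dep libraries, was 1.84-fold lower than in the Mid (log2 fold change -0.88 ± 0.18, FDR 0.0163). The groups overlapped in TPM through Dep replicate 3, though not after TMM. The call was lost without Dep replicate 2 (FDR 0.0706), without Dep replicate 4 (FDR 0.0574), with library totals (FDR 0.155), by limma on TPM (FDR 0.178) and in a fit of only these groups (FDR 0.0982). *Bhlhe40* (21.3, 17.6, 17.5 and 11.2 TPM), *Bhlhe41* (9.57, 9.27, 6.83 and 8.36) and *Nfil3* (35.3, 33.7, 47.5 and 39.1) in the Dep lay near the Mid, with log2 fold changes from the Mid to Dep of 0.32 ± 0.15, 0.21 ± 0.13 and 0.09 ± 0.13.

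Against the Pre, 4 of 7 were called in the Dep, 1 higher and 3 lower (25.8% of clusters), and 3 of 7 in the HiT, all lower (33.4%). In the Dep, *Bhlhe40* fell by 1.30 ± 0.18 on the log2 scale (FDR 7.61e-06), *Nfil3* rose by 0.68 ± 0.15 (FDR 0.00132; FDR 0.121 with library totals and 0.117 by limma), and *Tef* promoters 1 and 2 fell by 0.60 ± 0.20 (FDR 0.0276) and by 0.47 ± 0.13 (FDR 0.0120). The call of *Tef* promoter 1 was lost with library totals (FDR 0.0647) and without Pre replicate 2, 3 or 4 or Dep replicate 2 or 4. Compared with the Pre, in the HiT *Hlf* fell by 1.22 ± 0.22 (FDR 9.07e-05), *Tef* promoter 1 by 0.64 ± 0.20 (FDR 0.0146) and *Bhlhe40* by 0.52 ± 0.18 (FDR 0.0249). The fall of *Bhlhe40* did not pass without Pre replicate 2 (FDR 0.0677), Pre replicate 4 (FDR 0.0636) or HiT replicate 4 (FDR 0.0562).

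**Figure D3:**
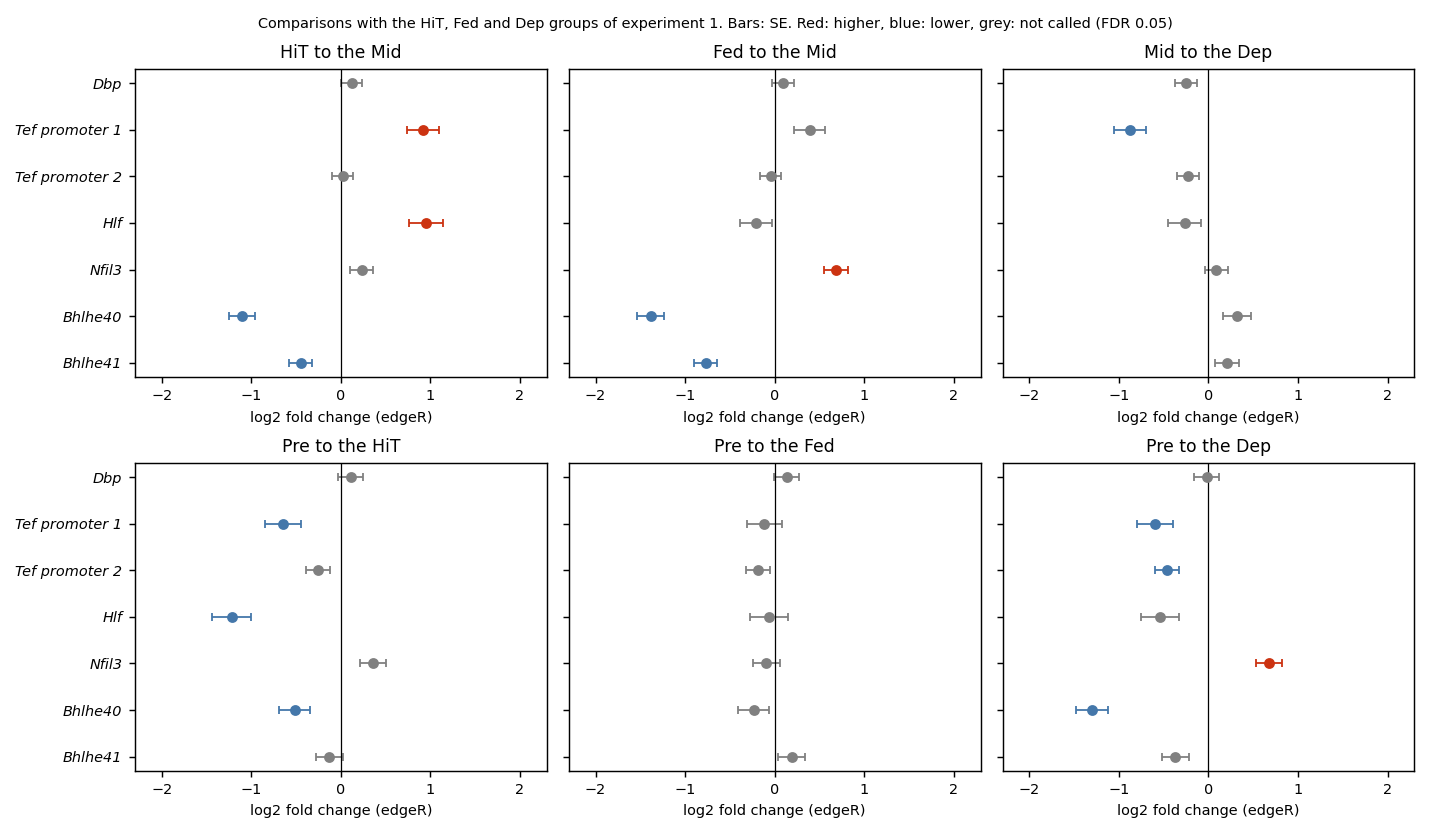
Log2 fold change with its SE for each promoter in 6 comparisons with the HiT, Fed and Dep groups of experiment #1, in red or blue where called and grey otherwise. No promoter is coloured from the Pre to Fed, and only *Tef* promoter 1 is from the Mid to Dep.

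Ordered by mean TPM over the 6 groups of experiment #1, *Bhlhe40* ran from the Post (54.5 ± 9.10, SD, n = 4) through the Pre (47.3 ± 8.28), Fed (40.98 ± 8.98), HiT (29.4 ± 8.25) and Dep (16.9 ± 4.17) to the Mid (14.3 ± 3.19, n = 8), and among neighbours in this order only the HiT and Dep were called as different. *Bhlhe41* ran from the Post (18.8 ± 2.28) through the Fed (14.7 ± 1.37), Pre (12.7 ± 1.503), HiT (10.2 ± 2.24) and Dep (8.51 ± 1.23) to the Mid (7.94 ± 1.29), and only the Post and Fed differed as neighbours. *Nfil3* ran from the Mid (39.3 ± 6.65) and Dep (38.9 ± 6.17) through the HiT (31.6 ± 11.03), Pre (27.7 ± 5.16) and Fed (26.6 ± 6.37) to the Post (11.6 ± 1.39), with only the Fed and Post differing as neighbours. Mid and Dep were thus at the bottom for both BHLHE repressors and at the top for *Nfil3*.

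*Dbp* had its highest mean in the Post (15.98 ± 1.73), and the other 5 groups lay between 7.33 ± 1.17 (Dep) and 9.52 ± 2.05 (Fed). The Post differed from each of the 5, and no other pair did. *Hlf* had its lowest mean in the HiT (2.21 ± 0.83), and the others lay between 3.54 ± 1.27 (Dep) and 5.72 ± 0.72 (Pre). The HiT differed from each of the other 5 and no other pair was called. *Tef* promoter 1 ran from the Mid (58.4 ± 14.6) through the Pre (50.8 ± 8.08), Fed (47.8 ± 7.65), Post (36.6 ± 13.8) and Dep (30.3 ± 12.3) to the HiT (29.1 ± 8.68), with no neighbours called as different. Of the 15 pairs of groups, 11 were called for *Bhlhe40*, 10 for *Nfil3*, 9 for *Bhlhe41*, 6 for *Tef* promoter 1, 5 for *Dbp*, 5 for *Hlf* and 2 for *Tef* promoter 2. In the 6 pairs not described above, members called against the share of all clusters were 5 of 7 against 29.2% for the Post and HiT, 4 against 22.2% for the Post and Fed, 5 against 24.6% for the Post and Dep, 3 against 43.2% for the HiT and Fed, 2 against 26.5% for the HiT and Dep, and 3 against 38.6% for the Fed and Dep.

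The *Tef* promoters differed in their course. Promoter 1 gave 75.4 ± 2.11% (SD, n = 4) of the *Tef* tags in the Pre libraries of experiment #1, 81.3 ± 2.52% (n = 8) in the Mid, 69.0 ± 7.74% in the Post, 70.1 ± 1.89% in the HiT, 76.4 ± 1.73% in the Fed and 72.9 ± 5.53% in the Dep. Every Mid library (78.0 to 85.4%) was above every Pre library (73.0 to 77.7%) and every Post library (59.7 to 75.8%), while it overlapped the Fed and Dep. In experiment #2 the share was higher in all groups, at 87.1 ± 0.80% (n = 2), 88.4 ± 1.15% (n = 5) and 85.2 ± 1.11% (n = 3) in the Pre, Mid and Post. There the Mid was again above the Post without overlap, but the Mid and Pre overlapped. These shares are given as a description and were not tested.

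D-box activators and their repressor can be set side by side through the ratio of the summed TPM of the 4 PAR bZIP promoters to that of *Nfil3*. It was 3.05 ± 0.79 (SD, n = 4) in the Pre, 2.20 ± 0.54 (n = 8) in the Mid, 6.17 ± 1.21 in the Post, 1.68 ± 0.26 in the HiT, 3.03 ± 0.66 in the Fed and 1.32 ± 0.28 in the Dep of experiment #1. All Post libraries (4.86 to 7.71) were above all others of the experiment (up to 4.02), and all Dep libraries (0.93 to 1.52) were below all Mid libraries (1.63 to 3.32). *Tef* promoter 1 is the largest part of the sum, which also counts *Tef* promoter 2. The sum averaged 81.5 TPM in the Pre, 85.5 in the Mid, 71.9 in the Post and 51.7 in the Dep. The higher Post ratio of experiment #1 thus came with lower *Nfil3* and not with a higher sum. The call of *Tef* promoter 1 from the Mid to Dep was lost under several settings, as given above. In experiment #2 the ratio was 1.33 and 1.34 in the Pre libraries, 0.61 to 1.16 in the Mid and 2.82 to 3.97 in the Post. There the sum averaged 88.9 TPM in the Pre, 85.2 in the Mid and 98.3 in the Post. Every Post library of experiment #2 had a higher sum than every Pre and Mid library, so its higher Post ratio came with lower *Nfil3* and a higher sum. The ratio of *Nfil3* to *Bhlhe40* set the Mid and Dep apart from the Pre, Post and Fed without overlap in experiment #1, at 0.52 to 0.75 in the Pre, 0.19 to 0.23 in the Post and 0.61 to 0.66 in the Fed, against 1.48 to 3.99 in the Mid and 1.66 to 3.49 in the Dep. The HiT libraries lay between, at 0.82 to 1.41. Both genes had been called in opposite directions on these same libraries, so the separation adds no support. In experiment #2 the ratio of *Nfil3* to *Bhlhe40* was 1.61 to 2.08 in the Pre, 4.83 to 10.5 in the Mid and 0.48 to 0.79 in the Post. The Pre libraries of experiment #2 thus lay within the range of the Mid of experiment #1.

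**Figure D4:**
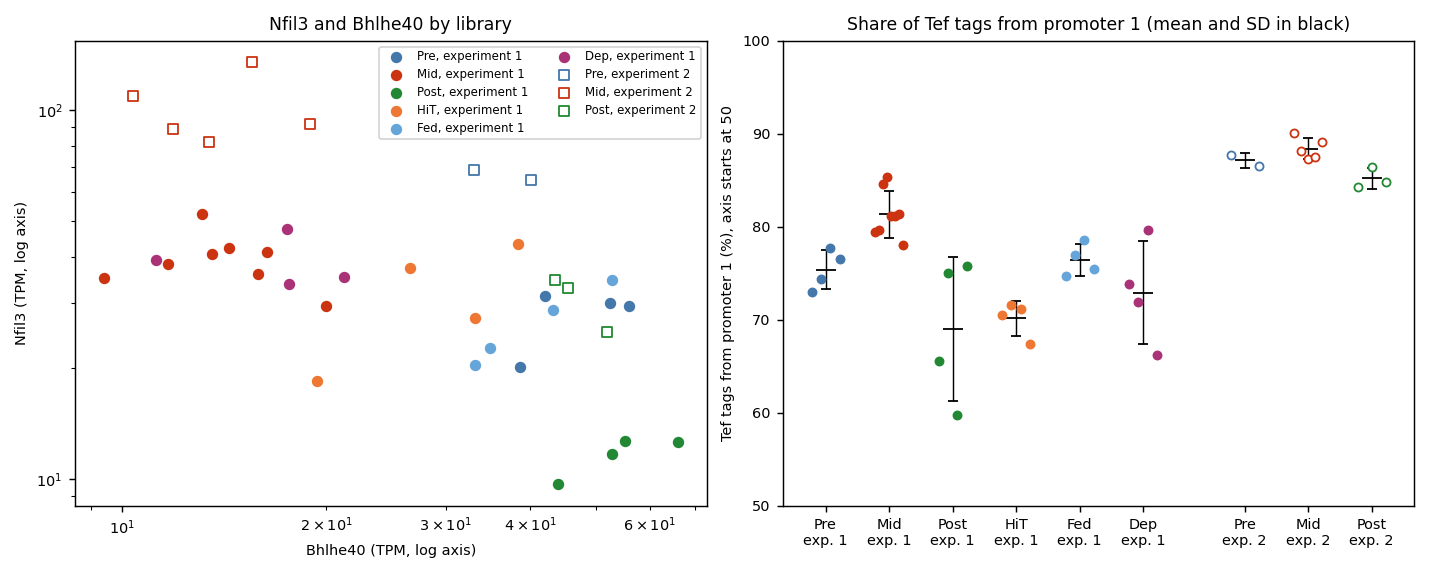
Left, *Nfil3* against *Bhlhe40* in TPM on log axes, with 1 point per library. Right, the percentage of *Tef* tags from promoter 1 per library, with the mean and SD in black and an axis that starts at 50. Mid and Dep libraries lie at low *Bhlhe40* and high *Nfil3*, and Post libraries at the opposite corner.

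Across the 28 libraries of experiment #1, log2 levels of *Bhlhe40* and *Bhlhe41* had a Pearson correlation of 0.88, those of *Nfil3* with them -0.78 and -0.86, and those of *Nfil3* with *Dbp* -0.72. In the 10 libraries of experiment #2 these were 0.89, -0.86, -0.87 and -0.88. The correlation of *Tef* promoter 1 with *Hlf* was 0.70 in experiment #1 and -0.37 in experiment #2. These are descriptions over libraries that fall into the groups above, and share their scaling.

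The other clock genes are given from a list of 19 core clock genes, of which 16 had a cluster (*Rorb*, *Ciart* and *Fbxl21* had none). Between the Pre and Mid, the leading clusters of 11 of the 16 were higher and none was lower in experiment #1 (5 to 11 higher and 0 to 1 lower under the alternatives), with a median log2 fold change of 0.49 against 0.01 over all clusters. The share of all clusters called from the Pre to Mid was 30.2% in experiment #1 and 9.74% in experiment #2. The core clock genes called higher are named here in part. Those higher in experiment #1 included both arms of the loop: *Arntl*, an activator (0.48 ± 0.08, FDR 9.48e-05), *Per1* (1.51 ± 0.24, FDR 3.20e-05) and *Cry2* (1.01 ± 0.14, FDR 4.78e-06), repressors of CLOCK and ARNTL, and *Rora* (0.62 ± 0.10, FDR 3.94e-05), an activator at RRE elements. In experiment #2, 6 of 16 were higher and none lower (median 0.49), among them *Arntl*, *Per1*, *Cry2* and *Rora*, but only 1 was higher without Pre replicate 5 or without Pre replicate 6, and 1 was lower without Mid replicate 10. *Bhlhe40* and *Bhlhe41*, which repress at the same E-boxes as the PER and CRY proteins, thus fell in experiment #1 where *Per1*, *Per2* and *Cry2* rose.

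From the Mid to Post, 3 of 16 were higher and 11 lower in experiment #1 (median -0.65 against -0.01 over all clusters), and 3 and 8 in experiment #2 (median -0.54). The share of all clusters called from the Mid to Post was 35.0% in experiment #1 and 16.4% in experiment #2. With the sequencing lane as a term, the counts of experiment #2 were 0 and 4. *Nr1d1*, which encodes REV-ERBα, the repressor at RRE elements, and *Per3* rose with *Dbp* in both: *Nr1d1* by 0.51 ± 0.17 (FDR 0.0180) and 1.32 ± 0.17 (FDR 0.000539), and *Per3* by 1.04 ± 0.18 (FDR 8.62e-05) and 1.31 ± 0.17 (FDR 0.000603). *Arntl* fell with *Nfil3*, by 1.09 ± 0.09 (FDR 1.48e-09) and by 1.04 ± 0.15 (FDR 0.00119) on the log2 scale, as did *Npas2*, which stands in for *Clock*, by 1.36 ± 0.23 (FDR 6.81e-05) and by 1.02 ± 0.16 (FDR 0.0020).

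From the Pre to Post, where 1.85% of clusters were called, 3 of 16 were higher and 2 lower in experiment #1 (between 1 and 4 higher and between 0 and 2 lower under the alternatives). *Nr1d1* was higher in the Post (1.14 ± 0.20, FDR 0.00195), with 11.3 to 17.3 TPM in the Pre and 29.8 to 35.6 in the Post, as were *Per3* (0.97 ± 0.22, FDR 0.0199) and *Nr1d2* (0.42 ± 0.11, FDR 0.0427). *Arntl* (-0.61 ± 0.10, FDR 0.000891), with 31.8 to 42.8 TPM in the Pre and 18.98 to 26.4 in the Post, and *Npas2* (-1.05 ± 0.26, FDR 0.0331) were lower. In experiment #2 only *Nr1d1* was called from the Pre to Post (1.76 ± 0.23, FDR 0.0227), among the 12 clusters called there. It was not called with a lane term, a replicate block, only these groups, or without Pre replicate 5, Pre replicate 6, Post replicate 5 or Post replicate 7. In experiment #1, *Nr1d1*, *Nr1d2* and *Per3* thus moved in the direction of *Dbp*, and *Arntl* and *Npas2* in that of *Nfil3*.

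Of the remaining comparisons, 7 of the 16 were higher from the HiT to Mid and none lower (41.0% of all clusters were called), 8 higher and 3 lower from the Fed to Mid (35.2%), and 8 higher and none lower from the Pre to Dep (25.8%). From the Mid to Dep, 2 were lower, *Nr1d1* among them, and none was higher (2.03% of clusters). In the HiT, *Per1* and *Csnk1d* were higher than in the Pre (33.4% of clusters), and in the Fed only *Clock* was (11.2%). Several of these counts depend on the scaling: without TMM, the Pre to Dep gave as few as 3 and the Pre to HiT and Pre to Fed none.

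**Figure D5:**
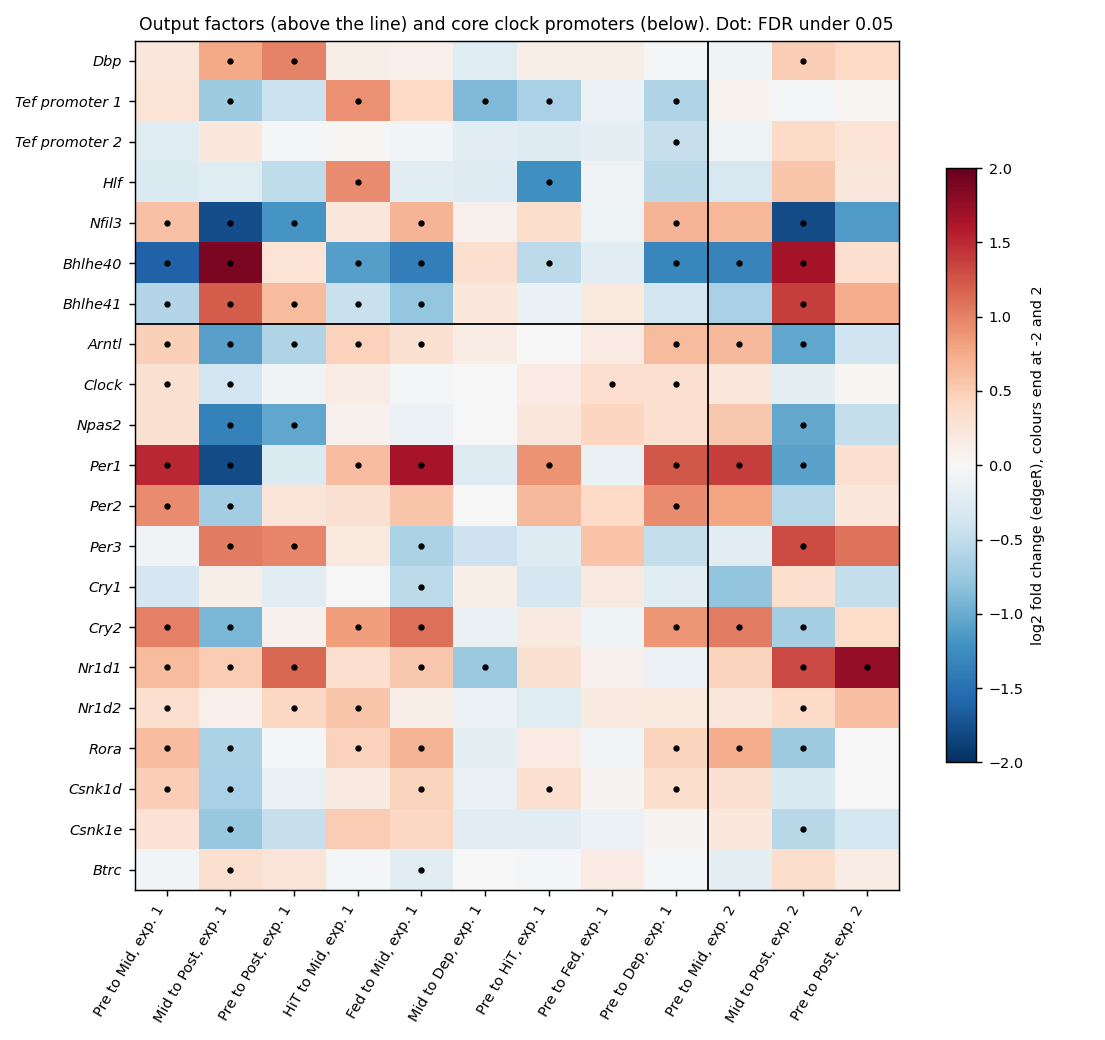
Log2 fold changes (colour, blue to red) of the 7 output promoters above the line and of core clock genes below it, in 9 comparisons of experiment #1 and 3 of experiment #2, with a dot where the FDR was below 0.05. *Dbp*, *Per3* and *Nr1d1* are red and *Nfil3*, *Arntl* and *Npas2* blue in the Pre to Post column of experiment #1.

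Genes tied to the members' functions were taken from short lists. Of 5 genes linked to the PAR bZIP factors, 4 had a cluster. In experiment #1, 2 were higher and 1 lower from the Pre to Mid: *Ppara*, a nuclear receptor for fatty acids (1.36), *Por*, the electron donor of cytochrome P450 enzymes (0.80), and *Alas1*, which starts heme synthesis (-0.56). The same 3 were called in that direction in experiment #2 (0.97, 1.05 and -0.73, in the same order). Of 5 genes linked to E-boxes in muscle, 3 had a cluster and only *Usp2*, a deubiquitinase, was called from the Pre to Mid (0.68 and, in experiment #2, 0.43). All 5 glucocorticoid-responsive genes, *Fkbp5*, *Per1* (also on the core clock list), *Sgk1*, *Tsc22d3* and *Zbtb16*, were higher from the Pre to Mid (median 1.20) and lower from the Mid to Post (median -1.80) in experiment #1, and 4 and 5 of 5 in experiment #2. Of 6 hypoxia-responsive genes, 4 had a cluster. From the Pre to Mid, *Bnip3* (0.55) and *Egln3* (0.69) were called higher in experiment #1, and *Pfkfb3* (-0.87) was called lower in experiment #2. Each moved in the same direction without a call in the other experiment (0.49, 0.30 and -0.56, in the same order). *Vegfa* was called in neither. The share of all clusters called for the Pre to Mid was 30.2% in experiment #1 and 9.74% in experiment #2. For the Mid to Post it was 35.0% and 16.4%.

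The clusters of other genes most like each leading promoter were ranked by Pearson correlation over the 28 libraries of experiment #1 among 9,434 clusters with a mean of 1 CPM or more. For *Dbp* these were *Mllt11* (0.83, and 0.92 over the 10 libraries of experiment #2), *Nr1d1* (0.82 and 0.84) and *Pstpip2* (0.75 and 0.73). For *Nfil3* they were *Asb15* (0.94 and 0.97), *Sf1* (0.91 and 0.91) and *Arhgap24* (0.90 and 0.95). *Bhlhe40* was most like *Ergic1* (0.96 and 0.94), 3300002P13Rik (0.96 and 0.95) and A430046D13Rik (0.95 and 0.95), and *Bhlhe41* like *Clcn3* (0.94 and 0.94), *Inpp5j* (0.93 and 0.88) and Gm29773 (0.92 and 0.88). The likeness of *Tef* promoter 1 to *Lsm14a* (0.91), *Kansl1l* (0.91) and *Nudt3* (0.90) and of *Hlf* to *Pm20d2* (0.89), *Nr3c1* (0.88) and *Tcf15* (0.87) was not seen in experiment #2, where these correlations lay between -0.47 and 0.49.

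Markers of other cells moved with some groups. The summed level of 4 macrophage markers with a cluster was 47.2 to 139 TPM in the HiT libraries and 14.1 to 43.2 in all others, alongside the low *Hlf* and *Tef* promoter 1 of the HiT, and all 4 were called higher from the Pre to HiT and lower from the HiT to Mid. Of 8 slow fiber markers, 5 were called higher from the HiT to Mid, where 41.0% of all clusters were called in either direction. In the Pre to HiT, where 33.4% of all clusters were called, 3 of these markers were lower. Of 8 fast fiber markers the counts were 2 and 2. The 2 fast markers higher from the HiT to Mid were *Myh4* (6.09 ± 1.48, FDR 0.00188) and *Pvalb* (1.45 ± 0.50, FDR 0.0230). The part of these markers in the results was not tested. Neutrophil markers (4 of 5 with a cluster) summed to 117 TPM in Dep replicate 1 and to at most 7.92 in every other library, with *S100a8*, *S100a9*, *Camp* and *Ngp* each at 0 in some libraries. *Tef* promoter 1 was lower in the Dep than in the Mid without that library too (-0.90, FDR 0.0351), and the call was lost without some other Dep libraries, as given above. Of 4 red blood cell markers with a cluster, all 4 were called lower from the Fed to Mid, 3 lower from the Pre to HiT, and none from the Pre to Mid, the Mid to Post or the Pre to Post in either experiment, although their sum was lower in the Post (1660 to 2885 TPM) than in the Pre (3761 to 5624) of experiment #1. Of 4 endothelial markers, 1 was called higher and 2 lower from the Pre to Mid, and 1 higher and 3 lower from the Fed to Mid, in experiment #1. Of 5 adipocyte and 5 tendon and fibroblast markers, 1 each was lower from the Pre to Mid there. The share of all clusters called in experiment #1 was 30.2% for the Pre to Mid and 35.2% for the Fed to Mid. The part of these markers in the changes of the members was not tested.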

How the data were processed

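CAGE libraries (nAnT-iCAGE) of soleus from 38 mice were analysed. BWA and HISAT2 were the aligners, with mm10 as the build, in the work of the authors, who then clustered the 5′ ends across libraries and deposited unnormalised tag counts per cluster together with TPM, the counts per 1000000 tags of a library's total (93.1 to 95.6% of which lies in clusters). Counts were tested with edgeR 4.0.16 (R 4.3.3; clusters with any tag, TMM, quasi-likelihood F test, Benjamini-Hochberg FDR below 0.05 over 10,776 clusters in experiment #1 and 10,816 in experiment #2). Each experiment was fitted with all its groups, and differences between experiments as an interaction. Alternatives were no TMM, upper-quartile scaling, filterByExpr, only the groups compared, all 38 libraries with experiment as a term, limma 3.58.1 on log2(TPM + 0.1), DESeq2 1.42.0, windows of 250 and 1000 bp, log2(TPM + 1), a lane term, a replicate block and leaving out each library. Exact permutation tests used log2(TPM + 0.1). The fits were tested on simulated counts. Nothing in the labels shows that libraries of 1 mouse were repeated, and no pair of the 72 within a group agreed within counting noise (lowest chi-square per cluster 12.4). Correlations used log2 CPM with a prior count of 2. Named were the 6 genes, fixed lists of clock and related genes (with *Nr1i3*, *Wee1*, *Lonrf3*, *Ankrd37* and *Ero1a* without a cluster), and the 3 most alike clusters per gene. Members and lists were chosen with earlier results of these data known. Some genes counted in the core clock list are not reported here by name.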

Additional observations from a re-analysis of the deposited data

Results flagged for a closer look

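Among 49 groups of 4 to 8 libraries of a promoter in which a single library was tested for standing apart, 1 did. *Dbp* was at 12.6 TPM in Fed replicate 3 and between 8.26 and 8.95 TPM in the other 3 Fed libraries, a gap of 0.84 of the whole range of the group. At the 95% level used, chance alone marks about 5% of groups.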

How the results depend on the processing

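None of 47 results for single promoters reversed its direction. Of 340 refits of them under other settings, 308 kept their side of the threshold, 18 gained a call and 14 lost it, and of 1044 refits without a library, 1013, 15 and 16 did. The 1 member called from the Mid to Dep became 0 with library totals in place of TMM, in a fit of only the groups compared and with limma, and ranged from 0 to 2 when a library was left out (0 without Dep replicate 2 or 4, 2 without Mid replicate 6). In experiment #2 the 1 called from the Pre to Mid became 2 with limma and 3 with DESeq2 (1 to 2 without a library), and the 0 from the Pre to Post became 1 with DESeq2. Without TMM, the pairs of groups called fell from 6 to 3 for *Tef* promoter 1, from 5 to 3 for *Hlf* and from 10 to 6 for *Nfil3*. Over all clusters, no TMM gave 21 in place of 199 calls from the Pre to Post, 6 in place of 1207 from the Pre to Fed, 9 in place of 219 from the Mid to Dep and 1458 in place of 3253 from the Pre to Mid in experiment #1, and DESeq2 gave 169 in place of 12 from the Pre to Post in experiment #2. Dropping TMM also moved the median log2 fold change of all clusters by -0.12 from the Fed to Mid, -0.17 from the Pre to HiT and -0.18 from the Pre to Dep. The share of higher calls went from 51.0 to 36.6% for the Pre to Mid, from 47.1 to 23.3% for the Fed to Mid, from 55.4 to 29.6% for the Pre to HiT and from 53.1 to 25.3% for the Pre to Dep. With upper-quartile scaling these shares were 35.7, 36.7, 41.3 and 38.9%, and the share for the Mid to Post went from 49.9 to 63.3% in experiment #1 and from 47.2 to 58.3% in experiment #2 (62.2% without TMM). The causes were not tested. Equal replicate numbers were not taken as pairs, since the labels tie them to no animal or batch and not every pair correlated above 0.1 (60 pairs, mean 0.0078, from -0.41 to 0.50). As a hint from the data, 12 of 24 libraries correlated best with a library of their own number, more than if the numbers did not matter. Whether the numbers mark a batch was not tested. With the replicate number as a block the members called were 3 from the Pre to Mid, 5 from the Mid to Post, 3 from the Pre to Post, 4 from the HiT to Mid, 3 from the Fed to Mid, 1 from the Mid to Dep, 3 from the Pre to HiT and 0 from the Pre to Fed, as without it, 5 in place of 4 from the Pre to Dep, and 0 from the Pre to Post in experiment #2. With 2 Pre and 3 Post libraries, experiment #2 has limited precision.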
